A study of Mus musculus with 50 samples.

Results

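The nuclear genes of respiratory complexes III, IV and V were followed in the gastrocnemius, the large calf muscle, of 50 male wild-type C57BL/6JRj mice. Genes were chosen by their symbols, which begin with Uqcr (complex III), with Cox4 to Cox8 (complex IV) or with Atp5 (complex V). Of the 23880 genes in the table, 42 symbols fitted, and 40 of them had at least 1 TPM in at least 8 mice. These 40 were 8 genes of complex III, 16 of complex IV and 15 of complex V, together with Atp5s, a coupling factor that is not a subunit of the enzyme. Cox7b2 and Cox8c, isoforms known from testis, did not reach 1 TPM in enough mice. The age groups of 8, 18, 22 and 24 months held 8 mice apiece and those of 26 and 28 months held 9 apiece, all singly caged, with 1 library per mouse. The mice of 8 and 18 months were accustomed to a purified diet for at least 2 months, whereas those of 22 to 28 months ate it from 18 to 19 months of age onwards. Diet history and age therefore cannot be told apart where 22 to 28 months are compared with 8 months, whereas 18 and 8 months shared 1 regime, as did 28 and 22 months. Mice of 28 months had nevertheless eaten the diet for longer than those of 22 months. Time on the diet and age cannot be told apart in that comparison either. Total counts per mouse ranged from 13607229 to 21267375, and TPM is a level adjusted for transcript length and library size.

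Complexes III, IV and V are the last enzymes of oxidative phosphorylation in the inner mitochondrial membrane. Complex III passes electrons from ubiquinol to cytochrome c, complex IV passes them from cytochrome c to oxygen, and complex V, the ATP synthase, uses the proton gradient that they build to make ATP. Most subunits are encoded in the nucleus, and a few core subunits are encoded in mitochondrial DNA; the table analysed here held no mitochondrial genes. Several complex IV subunits exist as a form of heart and skeletal muscle and a form of most other tissues, encoded by separate genes. Muscle fibres rich in mitochondria express these genes at high levels, and the gastrocnemius is mostly made of fast fibres.

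Skeletal muscle markers were abundant, as the tissue label says. The 8 skeletal muscle markers summed to a median of 160023 TPM at 8 months (range 153670 to 172086) and 163970 TPM at 28 months (range 119020 to 182143), with Tnnt3, fast troponin T, as the most abundant. Between these ages Ttn (1.27), Actn3 (0.56) and Des (0.34) rose and Tnnc2 (-0.36) fell (log2, edgeR), while the other 4 did not pass. Among all genes tested, 21% rose and 18.7% fell. Among the fast myosin heavy chains, the IIB form Myh4 was the most abundant.

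At 8 months the 40 genes together took a median of 3.76% of all TPM, and the lowest and highest of the 8 mice were at 3.43% and 4.99%. At 28 months the median was 3.16%, with 9 mice between 2.38% and 3.94%, so that the groups overlapped. The most abundant member was Atp5b, the catalytic β subunit of the ATP synthase head, with a median of 4264 TPM at 8 months (range 3861 to 5811). Atp5a1, the α subunit of the same head, followed with a median of 2197 TPM (range 1924 to 2621). In complex IV the highest level was that of Cox4i1, which encodes the subunit 4 found in most tissues, with a median of 1738 TPM (range 1405 to 2183), and Cox8b, the muscle form of subunit 8, followed with 1590 TPM (range 1220 to 1831), within the range of Cox4i1. Complex III was topped by the core protein gene Uqcrc1 with 1033 TPM (range 933 to 1212), and its lowest gene, Uqcrq, had 517 TPM (range 406 to 751). Far below the rest stood Cox4i2, an isoform of subunit 4 known from lung, with 3.82 TPM (range 1.70 to 6.53), and Cox6b2, an isoform known from testis, with 1.12 TPM (range 0.635 to 1.85).

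Transcripts of complexes III, IV and V were lower in 28 than in 8 months-old mice. Of the 39 members with enough counts to be tested, 28 fell and 0 rose at a false discovery rate (FDR) below 0.01, and the log2 fold change was negative in all 39. Among all 12586 genes tested, 18.7% fell, and their median log2 fold change was 0.01 against -0.43 for the members. Complex III fell in 7 of 8 subunits (median -0.43), complex IV in 9 of 15 (median -0.43) and complex V in 11 of 15 (median -0.41). These are results of edgeR's quasi-likelihood test with Benjamini-Hochberg adjustment over all genes, and Cox6b2 was too low to enter it. In TPM the 8 and 28 months-old groups overlapped for all 40 members. In bulk tissue, fewer cells of a type and less RNA per cell cannot be told apart. The count of members was 17 when the spread was estimated from the 2 ages alone, where 12.9% of all genes tested fell. It was 16, against 17.4% of all genes tested, after an adjustment for transcript length that is described below.

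**Figure D1:**
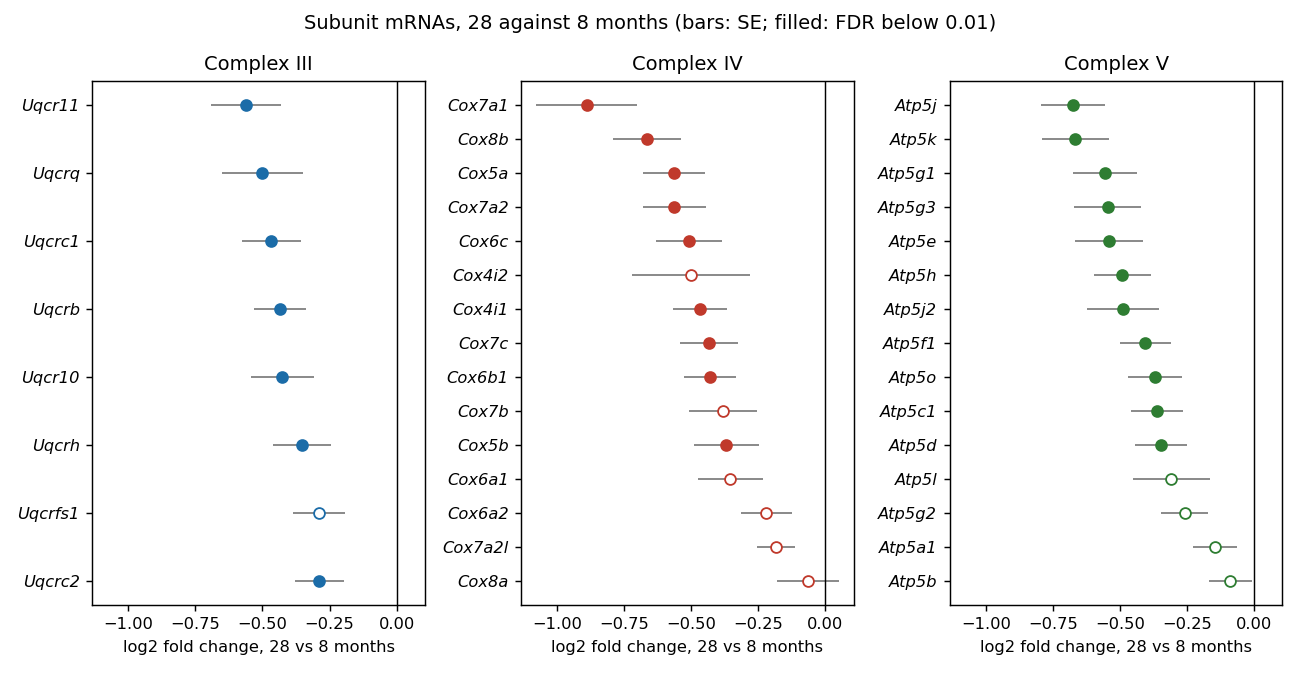
Log2 fold change of each tested subunit between 28 and 8 months (horizontal axis), by complex, with bars of 1 SE; filled points have an FDR below 0.01 and open points do not. Cox7a1 lies farthest to the left at -0.89, and Cox8a and Atp5b lie closest to 0.

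In complex III the lowest fold changes were those of the small subunits Uqcr11 and Uqcrq. Uqcr11, the smallest subunit of the complex, had a median of 755 TPM at 8 months (range 583 to 947) and 543 TPM at 28 months (range 406 to 781). Its log2 fold change was -0.56 ± 0.13 (SE; FDR 0.00035, edgeR), and 6 of 9 of the 28 months-old mice lay below every 8 months-old mouse. Uqcrq, a small membrane subunit that binds ubiquinone, went from 517 to 394 TPM (ranges 406 to 751 and 276 to 558) and fell by 0.50 on the log2 scale (SE 0.15, FDR 0.00536, edgeR). Uqcrc1 and Uqcrc2 encode the core proteins, and Uqcrc2 had the mildest change of the complex, -0.29 ± 0.09 (FDR 0.00716), with medians of 778 and 659 TPM (ranges 694 to 929 and 488 to 869). Uqcrfs1, the Rieske iron-sulfur protein, had nearly the same fold change, -0.29 ± 0.10, with an FDR of 0.0107 (edgeR), just above the threshold. Leaving out 8 months replicate 3 or 28 months replicate 1, 2, 5 or 9 lowered the number of complex III genes past the threshold from 7 to 4. With the 2 ages alone the number was 3 of 8, against 12.9% of all genes tested. With the length adjustment it was 2 of 8, Uqcr11 and Uqcrc1, a share near the 17.4% of all genes tested. Uqcrq (FDR 0.0453) and Uqcrc2 (FDR 0.068, edgeR) then no longer passed.

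Complex IV held the largest fall of all members and also the gene that moved least. Cox7a1, the heart and muscle form of subunit 7a, had a median of 878 TPM at 8 months (range 687 to 1109) and 486 TPM at 28 months (range 260 to 857). Its log2 fold change was -0.89 ± 0.19 (FDR 0.000124, edgeR), a level of 0.540 times that at 8 months, and 7 of 9 of the 28 months-old mice were below every 8 months-old mouse. The exceptions were 28 months replicates 3 and 6, at 857 and 760 TPM. Cox8b went from 1590 TPM (range 1220 to 1831) to 1071 TPM (range 779 to 1353), a log2 fold change of -0.67 ± 0.13 (FDR 3.36e-05, edgeR), and again 7 of 9 old mice were below all young ones. Cox5a, whose product sits on the matrix side of the enzyme, fell by 0.56 (log2; FDR 7.47e-05, edgeR). Cox7a2, Cox6c, Cox4i1, Cox7c, Cox6b1 and Cox5b also fell, by 0.37 to 0.56 on the log2 scale. Of these, Cox7c (FDR 0.0196), Cox6b1 (FDR 0.0466) and Cox5b (FDR 0.335, edgeR) no longer passed with the length adjustment. Cox8a, the form of subunit 8 in most tissues, had a median of 66.2 TPM (range 53.2 to 89.9) at 8 months and 67.2 TPM (range 55.3 to 82.9) at 28 months. Its log2 fold change of -0.07 ± 0.11 (FDR 0.649, edgeR) did not pass the threshold.

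The other complex IV genes that did not pass were Cox7b (-0.38, FDR 0.0113), Cox6a1 (-0.35, FDR 0.0132), Cox7a2l (-0.18, FDR 0.0281), Cox6a2 (-0.22, FDR 0.0494) and Cox4i2 (-0.50, FDR 0.0518), with values of edgeR between 28 and 8 months. Cox7a2l encodes a relative of subunit 7a that has been linked to the joining of complexes III and IV into supercomplexes, which these data do not measure. It had the narrowest spread of the complex, with a median of 241 TPM at 8 months (range 219 to 274) and 229 TPM at 28 months (range 195 to 260). Cox4i2 had few counts, and its SE of 0.22 was the widest of the members.

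The genes of complex V were grouped by part of the enzyme, and differences between these small groups were not tested. Of all genes tested, 18.7% fell between 8 and 28 months. The stator stalk, which holds the head still against the rotor, fell in 4 of 4 genes, Atp5j, Atp5h, Atp5f1 and Atp5o. With the length adjustment Atp5o no longer passed (FDR 0.15, edgeR). Atp5j, coupling factor 6, had the lowest fold change of the complex, with medians of 1009 TPM at 8 months (range 937 to 1568) and 756 TPM at 28 months (range 495 to 980), -0.67 ± 0.12 (FDR 1.39e-05, edgeR). In 8 of 9 of the 28 months-old mice it was below every 8 months-old mouse. Atp5k, the membrane subunit e, did the same with medians of 900 and 647 TPM (ranges 734 to 1106 and 430 to 811), -0.67 ± 0.13 (FDR 2.79e-05, edgeR), and 8 of 9 old mice were below all young ones. Of the small membrane subunits 2 of 3 fell, and of the 3 genes for the rotating c ring 2 fell, Atp5g1 and Atp5g3.

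The F1 part of the enzyme, the head with the central stalk that turns in it, fell in 3 of 5 genes, against 18.7% of all genes tested. These were Atp5c1, Atp5d and Atp5e of the central stalk. The most abundant subunits, which form the head, did not pass. Atp5b had a median of 4264 TPM at 8 months (range 3861 to 5811) and 4372 TPM at 28 months (range 3479 to 5293), with a log2 fold change of -0.09 ± 0.08 (FDR 0.348, edgeR). For Atp5a1 the medians were 2197 TPM (range 1924 to 2621) and 2163 TPM (range 1692 to 2542), with a log2 fold change of -0.15 ± 0.08 (FDR 0.126, edgeR). Atp5l, subunit g, and Atp5g2, the remaining c ring gene, had log2 fold changes of -0.31 (FDR 0.0656) and -0.26 (FDR 0.0109, edgeR). Atp5s, the coupling factor outside the enzyme, fell by 0.42 on the log2 scale (SE 0.09, FDR 0.000115, edgeR). Complex V had 5 of 15 genes past the threshold with the 2 ages alone, where 12.9% of all genes tested fell. With the length adjustment it had 7 of 15, against 17.4% of all genes tested. Atp5c1 (FDR 0.0126), Atp5d (FDR 0.116), Atp5o of the stator (FDR 0.15) and Atp5j2 of the membrane part (FDR 0.0201, edgeR) then no longer passed.

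Earlier ages differed less from 8 months. At 26 months 5 of 39 members (12.8%) fell, a share near the 8.55% of all genes tested. Among the 38 subunits the share was 10.5%. The median log2 fold change of the members was -0.28. The members that fell were Cox7a2 (-0.43), Cox5a (-0.38), Atp5j (-0.43), Atp5g1 (-0.42) and Atp5s (-0.29). The count of 5 rested on individual mice. It was 0 without 8 months replicate 3 or 26 months replicate 1, 1 without 26 months replicate 9, 2 without 26 months replicate 3 or 8, and 3 without 8 months replicate 1, 6 or 7 or 26 months replicate 4. It was 8 without 26 months replicate 5 and 12 without 8 months replicate 8. DESeq2 called 8 members, and limma on log2(TPM + 1) called 4. The count was 2 with the 2 ages alone, 2 with the length adjustment and 3 with no filter on low counts. For these alternatives the share of all genes tested was not counted.

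At 24 months 0 of 39 members passed with edgeR, DESeq2 or limma, against 0.294% of all genes tested that fell; 6 members had an unadjusted p below 0.05, all lower. At 22 months none passed with any of these tools, with 2 members below 0.05 unadjusted and 0% of all genes called lower. At 18 months none passed either, with 0 members below 0.05 unadjusted and 0.0318% of all genes called lower. The median log2 fold change of the members was -0.07 at 18 months, -0.14 at 22 months and -0.17 at 24 months. Between 26 and 24 months 0 members passed with edgeR, DESeq2 or limma, 0 had an unadjusted p below 0.05, and 0% of all genes tested were called lower.

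Between 28 and 22 months-old mice, which shared a diet regime, 12 of 39 members fell, against 11.5% of all genes tested, with a median log2 fold change of -0.30. Cox7a1 (-0.69 ± 0.19, FDR 0.00303) and Cox8b (-0.58 ± 0.13, FDR 0.000407, edgeR) had the lowest values among them. Cox4i2, with few counts, was at -0.65 ± 0.22 and did not pass (FDR 0.0156, edgeR). The others that fell were Uqcr11 and Uqcrc1 of complex III, Cox5a, Cox4i1 and Cox6b1 of complex IV, Atp5k, Atp5j, Atp5e and Atp5h of complex V, and Atp5s. Here too single mice moved the count, to 19 without 28 months replicate 3, and to 3 without 28 months replicate 1 or 5. It was 4 without 28 months replicate 2 or 9 or 22 months replicate 8, 5 without 22 months replicate 5, 6 or 7, and 6 without 22 months replicate 4. The count was 1 when the spread was estimated from these ages alone, 2 after the length adjustment and 5 with no filter on low counts. The share of all genes tested was not counted under these settings or without single mice. These counts therefore do not show that more members than other genes fell.

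The complexes moved together from mouse to mouse. For each mouse, the score of a complex is the mean over its subunits of log2(TPM + 1) after each gene's mean over the 50 mice is taken away; it is given as a description, with no test. From 8 to 28 months the mean score of complex III went from 0.16 ± 0.18 to -0.19 ± 0.26 (SD), that of complex IV from 0.16 ± 0.17 to -0.21 ± 0.22 and that of complex V from 0.16 ± 0.18 to -0.20 ± 0.25. Scores at 28 months spread widely. Replicate 1 was lowest, at -0.58, -0.54 and -0.56 for complexes III, IV and V, and replicate 3 was highest, at 0.22, 0.14 and 0.18. Within a mouse the scores hardly differed: at 28 months complex III minus complex V lay between -0.02 and 0.03, and complex IV minus complex V between -0.08 and 0.08. The mean of either difference changed by at most 0.03 between 8 months and any later age, less than the SD of the scores.

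**Figure D2:**
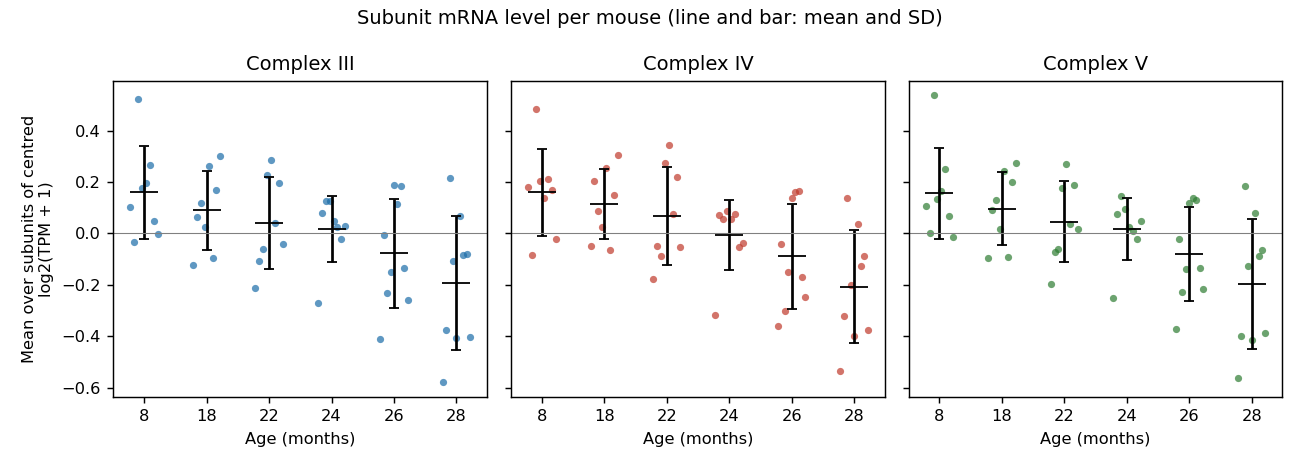
Score of complexes III, IV and V in each mouse (vertical axis, log2 units; points are mice, lines and bars are mean and SD) at each age in months. The mean declines from 0.16 at 8 months to -0.19 to -0.21 at 28 months in each complex, and 28 months-old mice range from -0.58 to 0.22.

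Among the members, the spread between mice of 1 age was widest at 28 months. The study reported that variation between mice increased with age over all genes, and the members were not compared with that. Over the 38 members other than Cox4i2 and Cox6b2, the median coefficient of variation was 14.6% at 8 months, 10.3% at 24 months and 17.5% at 28 months. Cox7a1 had the widest spread at 24, 26 and 28 months, with 18.6%, 34.2% and 41.2%, and it had 15.2% at 8 months. At 26 and 28 months the narrowest was Atp5g2, with 5.77% and 6.35%.

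Complex I (NADH dehydrogenase; symbols starting with Nduf, assembly factors and the complex IV protein Ndufa4 included) and complex II (succinate dehydrogenase) were measured the same way. Between 28 and 8 months 39 of 46 complex I genes fell, with a median log2 fold change of -0.50, and 3 of 4 complex II genes fell, with a median of -0.36. In complex II, Sdhb, the iron-sulfur subunit, had the lowest value (-0.44, FDR 0.00229), and Sdha, the flavoprotein, had -0.04 (FDR 0.688, edgeR). The mean score of complex I changed by -0.41 between these ages, that of complex II by -0.24, and those of complexes III, IV and V by -0.35, -0.37 and -0.35. Of all genes tested, 18.7% fell. At 26 months 18 of 46 complex I genes fell, against 8.55% of all genes tested. Whether the complexes differed in these shares was not tested.

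The tissue-type isoforms of complex IV did not shift alike. For each mouse the log2 ratio of the muscle form to the form of most tissues was taken from TPM + 1 for subunits 6a, 7a and 8, and likewise the ratios of Cox4i2 to Cox4i1 and of Atp5g1 to Atp5g3, and the ages were tested by exact two-sided permutation over mice, adjusted over 5 pairs of genes and 6 comparisons.

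In subunit 8 the muscle form lost ground. The ratio of Cox8b to Cox8a had a median of 23.6 in TPM at 8 months (range 20.4 to 27.1), 18.6 at 26 months (range 13.7 to 20.4) and 15.3 at 28 months (range 9.44 to 19.4). On the log2 scale it was 4.53 ± 0.13 (SD, n = 8) at 8 months, 4.16 ± 0.17 (n = 9) at 26 months and 3.89 ± 0.32 (n = 9) at 28 months. The difference from 8 months was -0.64 at 28 months and -0.37 at 26 months (exact permutation test, adjusted p = 0.00123 for each), in 9 of 9 old mice each time. On the log2(TPM + 1) scale neither old group overlapped with the young mice, though at 26 months the margin was narrow (highest 4.328, against 4.333 for the lowest young mouse) and the plain TPM ratios of these 2 groups touched. The unadjusted p of 8.23e-05 is the smallest that this design can give. Between 28 and 22 months the difference was -0.56 (adjusted p = 0.00411, exact permutation test, 9 of 9 mice). At 18, 22 and 24 months the means were 4.59, 4.45 and 4.48, and adjusted p was between 0.613 and 0.736. As the levels above show, the numerator fell while the Cox8a level did not pass the test.

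The pair of subunit 7a shifted the same way but with overlap. Cox7a1 to Cox7a2 stood at a log2 ratio of 0.70 ± 0.09 (SD, n = 8) at 8 months and 0.30 ± 0.33 (n = 9) at 28 months, with median TPM ratios of 1.61 (range 1.52 to 1.78) and 1.197 (range 0.890 to 1.70). The difference was -0.40 (adjusted p = 0.0222, exact permutation test), and 7 of 9 old mice were below the mean at 8 months. The lowest old mice, 28 months replicates 5 and 1, had log2 ratios of -0.17 and -0.14, so that the form of most tissues was the more abundant there, and replicates 3 and 6 had 0.76 and 0.74, among the young values. From 22 to 28 months the difference was -0.44 (adjusted p = 0.0222, exact permutation test, 8 of 9 mice), and at 26 months it was -0.20 against 8 months (adjusted p = 0.389). Both genes of this pair fell between 8 and 28 months, Cox7a2 from a median of 532 TPM (range 435 to 727) to 394 TPM (range 287 to 504).

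In subunit 6a the ratio was slightly higher at 28 than at 8 months. Cox6a2, the muscle form, had medians of 1424 TPM at 8 months (range 1211 to 1880) and 1255 TPM at 28 months (range 1130 to 1623). Cox6a1, the form of most tissues, had 47.0 TPM (range 36.7 to 59.2) and 37.7 TPM (range 31.1 to 44.7). The log2 ratio was 4.93 ± 0.06 (SD, n = 8) at 8 months, 5.13 ± 0.19 at 24 months and 5.05 ± 0.08 (n = 9) at 28 months, a difference from 8 months of 0.20 (adjusted p = 0.0273, 7 of 8 mice) and 0.12 (adjusted p = 0.0222, 9 of 9 mice) by exact permutation tests. At 26 months the difference was 0.13 with an adjusted p of 0.425. Between 28 and 22 months, which shared a diet regime, it was 0.02 (adjusted p = 0.747, exact permutation test), so that no shift was detected there.

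Over the 6 ages the levels of these genes took different courses. The median of Cox7a1 was 878, 775, 754, 736, 568.3 and 486 TPM from the youngest to the oldest group, with the lowest mouse at 687, 673, 546, 430, 308 and 260 TPM. Cox8b went through 1590, 1584, 1490, 1447, 1283 and 1071 TPM at the same ages, and Cox7a2 through 532, 480, 465.6, 460, 393 and 394 TPM. Both muscle forms had their lowest medians at 28 months, with the widest step between 24 and 26 months for Cox7a1 and between 26 and 28 months for Cox8b. Cox6a2 had medians of 1424, 1492, 1438, 1505, 1427 and 1255 TPM, so that it was lowest at 28 months and without order before. Cox6a1 had 47.0, 47.3, 43.6, 39.9, 38.7 and 37.7 TPM, and Cox8a 66.2, 67.2, 63.9, 60.7, 70.7 and 67.2 TPM, and the ranges of neighbouring ages overlapped for all 6 genes.

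**Figure D3:**
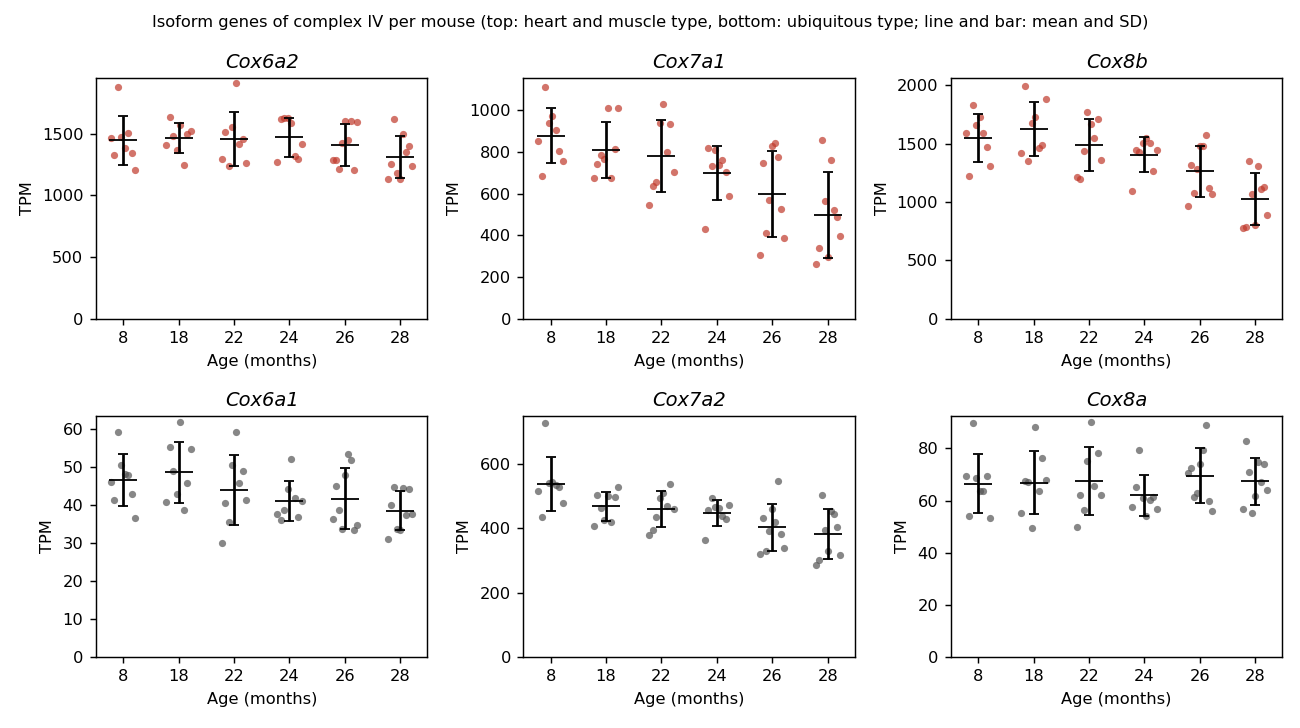
TPM (vertical axis, starting at 0) of the muscle forms Cox6a2, Cox7a1 and Cox8b (upper row) and of their counterparts Cox6a1, Cox7a2 and Cox8a (lower row) in each mouse by age in months; lines and bars are mean and SD. Cox7a1 reaches 260 TPM in the lowest 28 months-old mouse, and Cox8a stays between 49.4 and 90.3 TPM at all ages.

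These changes differed between the pairs. Tested as the difference between log2 ratios within each mouse, chosen after the values were seen, the change from 8 to 28 months was 0.76 higher for subunit 6a than for subunit 8 (adjusted p = 0.000247), 0.53 higher for 6a than for 7a (adjusted p = 0.00074) and 0.24 higher for 7a than for 8 (adjusted p = 0.0241), by exact permutation tests adjusted over 3 comparisons. The remaining pairs gave no call. Cox4i2 to Cox4i1 had log2 ratios of -8.47 ± 0.52 at 8 months and -8.39 ± 0.24 at 28 months (difference 0.08, adjusted p = 0.747), and Atp5g1 to Atp5g3 had -0.58 ± 0.10 and -0.60 ± 0.07 (difference -0.02, adjusted p = 0.736, exact permutation tests, n = 8 and 9). The medians at 8 and 28 months were 838 and 643 TPM for Atp5g1 and 1192 and 966 TPM for Atp5g3.

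**Figure D4:**
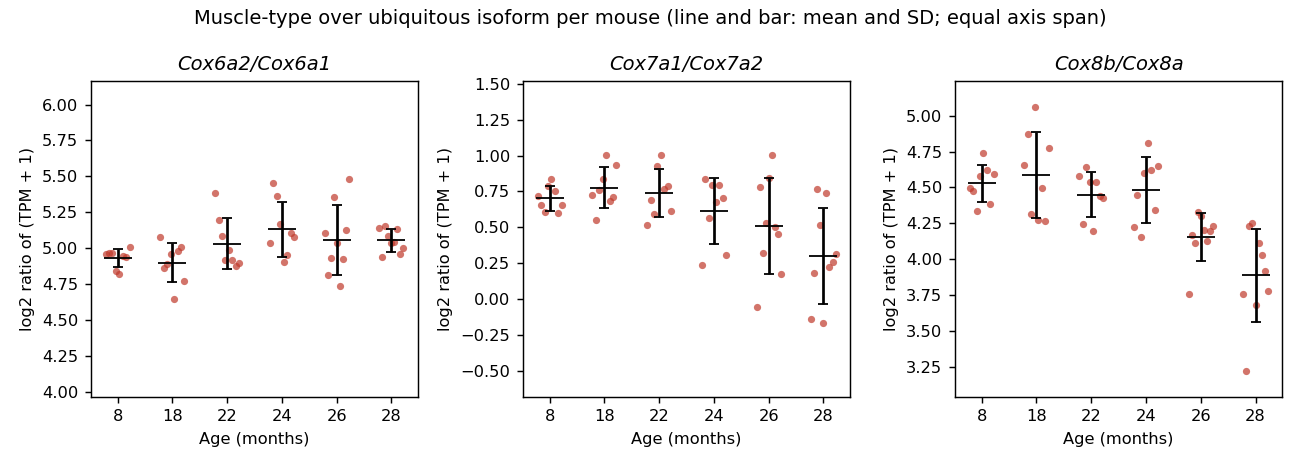
Log2 ratio of the muscle form to the form of most tissues in each mouse (vertical axis, the same span in each panel) by age in months; lines and bars are mean and SD. The Cox8b to Cox8a ratios at 26 and 28 months lie below all ratios at 8 months, whereas Cox6a2 to Cox6a1 is 0.12 higher at 28 months.

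Members have short mRNAs, and fold changes depended on length across the whole table. Transcript length, estimated from the ratio of counts to TPM, was under 1000 nt for 29 of the 39 members tested. Of all 1155 tested genes under 1000 nt, 35.6% fell between 8 and 28 months, with a median log2 fold change of -0.25, whereas 10.9% of genes over 3000 nt fell, with a median of 0.14. Members under 1000 nt fell in 22 of 29 cases, with a median of -0.47. When the relation to length was taken out of each library, a step added after the data were seen, the members' median became -0.20. Against 17.4% of all genes tested that then fell, 16 of 39 members passed: 2 of complex III, 6 of complex IV, 7 of complex V, and Atp5s. Cox7a1 (-0.60, FDR 0.00064), Atp5j (-0.42, FDR 9.91e-05), Atp5k (-0.36, FDR 0.000137) and Cox8b (-0.35, FDR 1.5e-05, edgeR) were among them. Cox8a was then at 0.24 (FDR 0.0164), Atp5b at 0.07 (FDR 0.392) and Cox6a2 at 0.04 (FDR 0.647, edgeR), none past the threshold. With the same adjustment the ratio of Cox8b to Cox8a differed by -0.59 between 28 and 8 months (adjusted p = 0.00247), that of Cox7a1 to Cox7a2 by -0.36 (adjusted p = 0.028) and that of Cox6a2 to Cox6a1 by 0.11 (adjusted p = 0.0465, exact permutation tests).

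The members and the other genes under 1000 nt deviated in the same direction in 42 of 50 libraries. The 6 libraries with the most extreme member values were among them. In 8 months replicate 3 the members' median deviation from their mean log2 CPM over 50 mice was 0.65, and that of the other short genes was 0.37. In 18 months replicate 2 these values were 0.46 and 0.45, the latter the highest of any library. In 28 months replicates 1, 2, 5 and 9 the members were at -0.58, -0.58, -0.47 and -0.42 and the other short genes at -0.21, -0.29, -0.22 and -0.20. The directions differed in 28 months replicate 3, where the members were at 0.16 and the other short genes at -0.02. The part of transcript length or RNA quality in the members' decline was not tested.

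**Figure D5:**
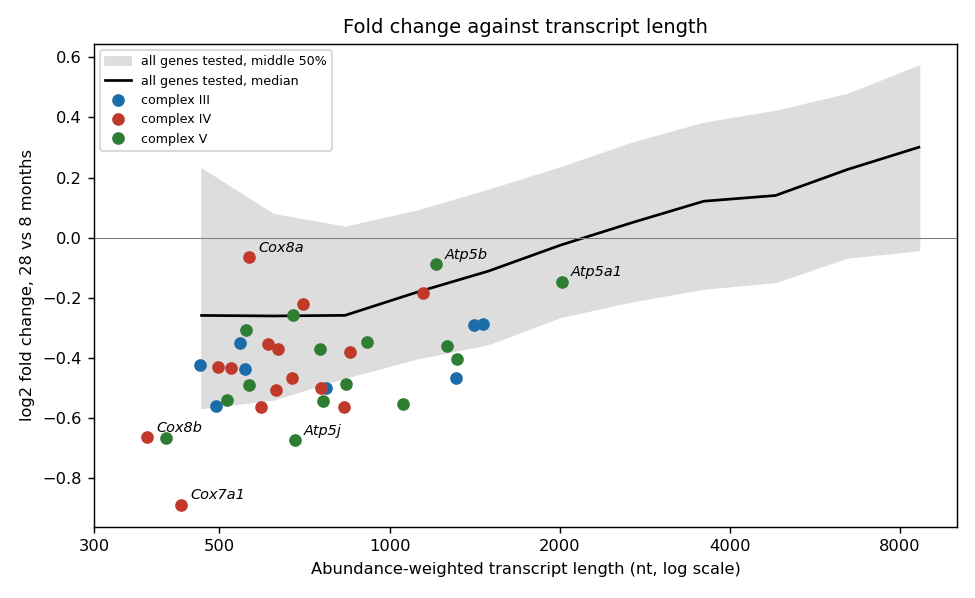
Log2 fold change between 28 and 8 months (vertical axis) against transcript length (horizontal axis, log scale) for the members, coloured by complex, and for all genes tested as median line and middle 50% band, drawn where a length bin holds at least 20 genes. Members lie mostly under the line, and Cox8a and Atp5b are among those above it.

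Genes that act with these complexes but carry other symbols were examined by fixed lists. Of 6 such genes 5 fell between 8 and 28 months, with Cycs, the mobile electron carrier cytochrome c, lowest (-0.73 ± 0.13, FDR 1.43e-05) and Atpif1, the inhibitor of the ATP synthase, highest (-0.44 ± 0.14, FDR 0.00712, edgeR). Cyc1, the cytochrome c1 subunit of complex III, went from a median of 514 TPM (range 445 to 669) to 372 TPM (range 257 to 567), -0.54 ± 0.13 (FDR 0.000485, edgeR). Assembly factors of complex III fell in 5 of 6 cases, with Uqcc3 lowest (-0.76) and Ttc19, which did not pass, highest (-0.12, FDR 0.0811). Those of complex IV fell in 17 of 25 cases and rose in 1, with Coa3 lowest (-0.76) and Pet117 highest (0.50, FDR 0.00467). Among all genes tested 18.7% fell and 21% rose. Of 4 assembly factors of complex V, 1 fell, Atpaf1 (-0.45), a share near that of all genes, and Tmem70 had the highest value (-0.18, FDR 0.0477, edgeR).

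Of 14 regulators of respiratory genes tested, 2 fell and 3 rose between 8 and 28 months, shares near those of all genes tested (18.7% lower and 21% higher). Esrra, the estrogen-related receptor α that binds promoters of oxidative genes, was lowest, with medians of 104 TPM at 8 months (range 87.9 to 116) and 65.9 TPM at 28 months (range 38.4 to 114), -0.71 ± 0.16 (FDR 0.000245, edgeR). Tfam, which packages and transcribes mitochondrial DNA, also fell (-0.31). Nrip1, a corepressor of oxidative genes, was highest (0.97 ± 0.22, FDR 0.000371), and Nrf1 (0.39) and Gabpa (0.34), activators of respiratory gene promoters, rose as well. Ppargc1a, the coactivator PGC-1α, had medians of 21.0 TPM (range 12.6 to 56.4) and 35.4 TPM (range 23.9 to 164), and its log2 fold change of 0.77 ± 0.34 did not pass (FDR 0.0523, edgeR). Yy1 (0.21, FDR 0.0699) and Ppara (0.46, FDR 0.178) did not pass either. Between 28 and 22 months, with a shared diet regime, Ppargc1a (1.17, FDR 0.00597) and Yy1 (0.33, FDR 0.00682) rose, and Ppara (0.78, FDR 0.0284) did not pass. Esrra fell in that comparison as well (-0.61, FDR 0.00213, edgeR).

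Markers of fibre types and of other cells were examined in the same comparison, in which 21% of all genes tested rose and 18.7% fell. The 8 slow fibre genes had log2 fold changes between 0.18 (Myl3, FDR 0.619) and 1.25 (Myh7, FDR 0.0174, edgeR), none past the threshold. Their summed level had medians of 1757 TPM (range 525 to 3165) and 2444 TPM (range 1036 to 4802), with Myl2 as the most abundant. Of 3 fast myosins Myh1 rose (0.67, FDR 0.00777), while Myh4 (0.28, FDR 0.107) and Myh2 (0.63, FDR 0.0503) did not pass. Of 7 denervation genes tested, 6 rose. The 8 listed genes with values summed to a median of 157 TPM (range 123 to 196) at 8 months and 276 TPM (range 232 to 619) at 28 months. Myh3, also listed, had no values. The most abundant of the 8, Myh8, did not pass (0.34, FDR 0.0798, edgeR). Macrophage genes rose in 5 of 8 cases, among them Lyz2, the most abundant (0.70, FDR 0.00391, edgeR). That list summed to medians of 237 TPM (range 182 to 320) and 401 TPM (range 285 to 759).

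Fibroblast genes fell in 4 of 6 cases, while Dcn, the most abundant, did not pass (-0.20, FDR 0.0466, edgeR). The whole list summed to medians of 967 TPM (range 725 to 1072) at 8 months and 717 TPM (range 597 to 815) at 28 months. Adipocyte genes fell in 3 of 5 cases, and Fabp4, the most abundant, did not pass (-0.25, FDR 0.141, edgeR). That list summed to medians of 491 TPM (range 413 to 660) and 378 TPM (range 300 to 701). Counts near the shares of all genes tested (18.7% lower, 21% higher) were those of the endothelial and erythroid lists. Of 5 endothelial genes 1 fell, with summed medians of 109 and 104 TPM (most abundant gene Pecam1). The 5 Schwann cell genes, with 206 and 129 TPM (most abundant gene Pmp22), had FDRs between 0.0101 and 0.829 (edgeR). Of the lymphocyte list only Ptprc, a pan-leukocyte gene, was high enough to test, and it rose (1.22), while the list summed to 1.91 and 3.57 TPM. Of 5 erythroid genes 1 rose, Alas2, with summed medians of 2018 and 3180 TPM (most abundant gene Hbb-bs). Smooth muscle and heart genes summed to 110 and 97.6 TPM (most abundant gene Acta2), and 1 of 3 tested fell. No marker in these lists was at 0 in all mice. The part of cell composition in the members' decline was not tested.

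The genes are scattered over 18 chromosomes, with the most, 6, on chromosome 7. These 6 include the muscle forms Cox6a2 (GRCm38, chr7:128205435-128206387), Cox7a1 (chr7:30184144-30186078) and Cox8b (chr7:140898945-140900446), while their counterparts lie elsewhere, Cox6a1 on chromosome 5, Cox7a2 on chromosome 9 and Cox8a on chromosome 19. Cox6b1 (chr7:30616861-30626151) is the member closest to Cox7a1. Words of 31 bases shared with protein-coding transcripts of other genes were absent for 34 of 40 members and made up at least 10% for Cox5b (28.7%), Atp5o (19.1%) and Atp5l (10.5%). In the case of Atp5o the sharing gene is a separate annotated gene that carries the same symbol. The values of these members are less certain because reads that fit several transcripts were divided among them.

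Promoter windows from 250 bases before to 50 bases after the transcript start were available for 30 of the 40 genes from RefSeq (GRCm38.p6). Windows were searched on both strands for the letters of motifs that known regulators of respiratory genes bind. The NRF1 motif GCGCATGCG was in 6 of 30 genes (20%; Atp5g2, Atp5k, Atp5l, Cox6a1, Uqcr11 and Uqcrc1) and in 1.95% of all 27025 genes with a window. The GABP motif CCGGAAGT was in 4 (13.3%; Atp5h, Cox8a, Uqcr11 and Uqcrh) against 4.31%, the YY1 motif AAGATGGCG in 2 (6.67%; Atp5j and Atp5j2) against 1.64%, and the estrogen-related receptor motif TCAAGGTCA in 1 (3.33%; Atp5g3) against 0.466%. The NRF1 letters overlap their own reverse complement, so that 1 site can match on both strands, and no match was shared between motifs. Matches are descriptions of letters and do not show binding. The windows of the pairs of subunits 7a and 8 are shown because the ratio shifted and both genes of the pair had a window, and those of Uqcr11 and Atp5g3 because they carry matches. Each reads 5′ to 3′ on the strand of the gene, and capitals mark motif matches.
Cox7a1, chr7:30183921-30184220, strand +: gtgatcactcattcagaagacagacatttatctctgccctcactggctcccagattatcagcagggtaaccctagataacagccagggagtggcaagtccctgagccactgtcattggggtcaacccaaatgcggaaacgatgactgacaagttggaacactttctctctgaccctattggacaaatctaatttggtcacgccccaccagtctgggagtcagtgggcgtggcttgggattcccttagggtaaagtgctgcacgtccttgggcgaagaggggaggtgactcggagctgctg
Cox7a2, chr9:79759804-79760103, strand minus: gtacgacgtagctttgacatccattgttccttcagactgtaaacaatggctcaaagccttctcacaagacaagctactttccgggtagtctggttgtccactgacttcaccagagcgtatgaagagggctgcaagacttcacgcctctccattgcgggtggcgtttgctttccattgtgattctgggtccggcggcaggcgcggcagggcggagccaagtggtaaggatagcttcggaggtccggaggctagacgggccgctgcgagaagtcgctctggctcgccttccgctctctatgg
Cox8b, chr7:140900397-140900696, strand minus: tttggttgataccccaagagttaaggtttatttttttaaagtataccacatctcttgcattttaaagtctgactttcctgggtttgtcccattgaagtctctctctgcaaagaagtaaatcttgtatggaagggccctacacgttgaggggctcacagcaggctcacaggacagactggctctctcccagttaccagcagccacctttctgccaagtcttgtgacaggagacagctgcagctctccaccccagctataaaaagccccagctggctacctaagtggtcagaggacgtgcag
Cox8a, chr19:7217567-7217866, strand minus: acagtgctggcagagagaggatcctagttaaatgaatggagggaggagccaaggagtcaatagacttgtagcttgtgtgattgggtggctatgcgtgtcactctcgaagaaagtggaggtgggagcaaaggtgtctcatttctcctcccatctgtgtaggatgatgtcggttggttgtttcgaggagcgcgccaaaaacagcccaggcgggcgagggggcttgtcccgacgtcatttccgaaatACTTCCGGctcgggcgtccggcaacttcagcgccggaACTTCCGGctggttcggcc
Uqcr11, chr10:80406772-80407071, strand minus: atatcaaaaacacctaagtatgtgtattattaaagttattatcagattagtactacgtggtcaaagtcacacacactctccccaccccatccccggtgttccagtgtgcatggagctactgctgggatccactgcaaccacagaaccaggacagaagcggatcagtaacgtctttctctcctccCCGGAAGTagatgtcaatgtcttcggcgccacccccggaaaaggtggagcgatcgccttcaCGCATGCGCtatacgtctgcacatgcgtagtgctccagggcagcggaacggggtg
Atp5g3, chr2:73911277-73911576, strand minus: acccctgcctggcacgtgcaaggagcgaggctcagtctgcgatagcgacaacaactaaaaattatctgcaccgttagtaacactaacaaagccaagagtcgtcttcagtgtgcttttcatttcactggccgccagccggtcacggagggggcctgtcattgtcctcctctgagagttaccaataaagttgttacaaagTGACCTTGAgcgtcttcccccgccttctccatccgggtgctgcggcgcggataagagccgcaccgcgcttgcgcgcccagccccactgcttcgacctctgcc

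None of the 4 sets of letters occurs in the windows of Cox7a1, Cox7a2 and Cox8b. Cox8a carries the GABP letters at 6 bases before and at 31 bases after the start, and Uqcr11 carries the GABP letters 66 bases and the NRF1 letters 5 bases before it. In Atp5g3 the estrogen-related receptor letters begin 52 bases before the start. Cox8a, with matches, and Cox7a2, without, belong to the forms of most tissues.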

How the data were processed

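Poly(A)-selected, stranded RNA-seq libraries, 1 per mouse, were made from gastrocnemius muscle of 50 mice in 6 age groups. Per the methods of the study, the authors trimmed reads with Cutadapt (1.9.1 in the submitters' processing notes), aligned them with kallisto (0.43.1) to protein-coding transcripts of Ensembl 92 (GRCm38), divided a read evenly among the transcripts it fitted and summed transcripts by gene. The deposited counts are whole numbers per gene, and the deposited TPM values were made by the authors from counts, transcript length and library size.

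Counts were analysed with edgeR 4.0.16 (R 4.3.3; quasi-likelihood F-test with TMM scaling; all 6 ages in 1 model; a gene needed 1 CPM or more in 8 mice or more; adjusted by Benjamini-Hochberg over every gene tested; threshold FDR 0.01). Fold changes are log2 with their SE. TPM served for levels, scores and isoform ratios, with a pseudocount of 1. For ratios, exact two-sided permutation over mice was used, adjusted over 30 comparisons, threshold 0.05. The text names the genes of the isoform pairs, the 2 lowest and the 1 highest member of each complex by fold change between 28 and 8 months, each subunit that missed the threshold there, the extremes of each pathway list, and Esrra, Ppargc1a, Yy1, Ppara and Cyc1; other genes were named after their values were seen. Promoters to print, the length adjustment, the tests between isoform pairs and the shared-word check were chosen after seeing the data. The members and lists were chosen with earlier results of these data known. Alternatives were DESeq2 1.42.0, limma 3.58.1 on log2(TPM + 1), upper-quartile and library-size scaling, the 2 ages alone, no filter, a replicate block and leaving out each mouse. Length was adjusted by a lowess curve of log2 CPM deviation on log2 transcript length in each library. Positions are from GENCODE vM21 (GRCm38). The edgeR step was tested on simulated data for 28 against 8 months. It recovered 51.4% of changes of 0.5 log2 and 88% of changes of 1 log2, and called 0 unchanged genes. A member that did not pass is therefore not shown to be unchanged.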

Additional observations from a re-analysis of the deposited data

Results flagged for a closer look

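In the 24 months-old group, replicate 1 stood apart from the other 7 mice in the scores of complexes III, IV and V, with -0.270 for complex III, -0.319 for complex IV and -0.253 for complex V. In the 26 months-old group, replicate 1 had the lowest log2 ratio of Cox8b to Cox8a, 3.75, apart from the other 8 mice. Each was marked because its gap to the nearest mouse was wide against the range of its age group. Of 48 groups of values checked in this way 4 were marked, and chance marks about 1 in 20.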

How the results depend on the processing

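No result past its threshold changed direction under any alternative run, while the uncalled values of Cox8a, Atp5b, Cox6a2 and Atp5g2 turned positive with the length adjustment. With the 2 ages alone, members past the threshold numbered 17 (28 against 8 months), 2 (26 against 8) and 1 (28 against 22), and 3 complex III and 5 complex V genes passed at 28 against 8 months. With the length adjustment they numbered 16, 2 and 2, with 2 genes of complex III and 7 of complex V. Of all genes tested at 28 against 8 months, 12.9% fell with the 2 ages alone and 17.4% with the length adjustment. Without the filter the members past the threshold numbered 3 (26 against 8) and 5 (28 against 22), and DESeq2 gave 8 (26 against 8). Leaving out each mouse gave 21 to 32 members at 28 against 8 months, the fewest without 8 months replicate 3 and the most without 28 months replicate 6, 0 to 12 at 26 against 8 months and 3 to 19 at 28 against 22 months. It gave 4 to 8 genes for complex III, 8 to 11 for complex IV and 8 to 12 for complex V. The ratio differences between 28 and 8 months then ranged from 0.11 to 0.14 for Cox6a2 to Cox6a1, -0.46 to -0.35 for Cox7a1 to Cox7a2, -0.69 to -0.56 for Cox8b to Cox8a, -0.03 to 0.16 for Cox4i2 to Cox4i1 and -0.04 to -0.004 for Atp5g1 to Atp5g3. The share of all genes tested was not counted when a mouse was left out. For 26 against 8 and 28 against 22 months it was counted in the main run alone. The cause of these changes was not tested.

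No pairing of mice by replicate number is documented. Over 8 pairs of 28 and 8 months the correlation of same-numbered mice lay between -0.16 and 0.155, and 2 of 8 correlated best with their own number. Over all ages the median correlation was 0.0515 for same numbers and -0.00502 for other numbers. Replicate 1 had the lowest complex III score at 18, 22, 24, 26 and 28 months (-0.124, -0.212, -0.270, -0.410 and -0.580), but not at 8 months (0.104). Whether the numbers carry an order or batch was not tested. With the replicate block, 30, 6 and 9 members passed in these 3 comparisons, and the ratio differences were 0.13 (adjusted p = 0.0521, exact sign-flip permutation test) for Cox6a2 to Cox6a1, -0.41 (adjusted p = 0.0521) for Cox7a1 to Cox7a2, both past the threshold of 0.05 without the block and not with it, and -0.63 (adjusted p = 0.0391) for Cox8b to Cox8a.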
